A study of Homo sapiens with 6 samples.

Results

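The transcription factors SNAI1, SNAI2, TWIST1, TWIST2, ZEB1, ZEB2, PRRX1 and TCF4 were examined in HMC3, an immortalised human microglial line, with and without the cytokine IL-33. These 8 genes were taken by symbol from a table of 27469 genes. All 8 were found, 7 had counts, and the same 7 passed the low-count filter. RNA was read by Lexogen QuantSeq 3' FWD sequencing, which places 1 tag near the 3' end of a polyadenylated transcript. The 3 Control libraries (HMC3, labelled Control) were compared with 3 libraries of HMC3 given IL-33 for 24 h. No dose, passage or vehicle is given in the labels, no time is given for the Control libraries, and the labels name no separate cultures. The p-values therefore rest on the spread among these libraries, which may be technical.

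These factors are known as drivers of epithelial-mesenchymal transition, in which cells lose epithelial junctions and take on the shape, matrix and motility of mesenchyme. SNAI1 and SNAI2 (SNAIL and SLUG) are zinc finger repressors, and ZEB1 and ZEB2 carry zinc finger clusters around a homeodomain. Both families bind E-box sequences and repress CDH1, the gene of E-cadherin. TWIST1, TWIST2 and TCF4 are basic helix-loop-helix proteins that act as dimers, TCF4 being the E protein also called E2-2 and not the Wnt effector TCF7L2. PRRX1 is a paired-type homeobox factor of mesenchyme. In macrophages and microglia ZEB2 also has a known part in cell identity.

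HMC3 carried ZEB2, TWIST1 and ZEB1 at moderate levels and TCF4 below them, SNAI2, TWIST2 and SNAI1 were low, and PRRX1 had no counts. With IL-33, 0 of the 7 tested members passed a Benjamini-Hochberg threshold of 0.05 in the quasi-likelihood test of edgeR, where 0% of the 12125 genes tested were called. At an unadjusted p under 0.05 there were 0 members, against 2.43% of all genes tested. In 0 members did the IL-33 values all lie on one side of the Control values, against 8.06% of all genes tested. Of the 7, 3 had a log2 fold change above 0 and 4 below, with a median of -0.03 beside -0.01 over all genes tested. The 8 members together measured between 105 and 112 CPM (the usual depth-scaled count unit, here on TMM-scaled library sizes) in the Control libraries and between 100.1 and 112 CPM with IL-33.

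Library totals ran from 5739947 to 10217529 counts, and 3 counts, taken as the limit for a count of 0, corresponded to between 0.293 and 0.543 CPM. Such limits and the intervals on counts cover counting error only, because PCR reads without molecular identifiers are not independent molecules. The shallowest library, Control 3, separated from the rest, at 55.0 on the first principal component where no other library exceeded 0.86. Of 17 microglia and macrophage markers 10 had 0 counts, ITGAM, P2RY12, TMEM119, CX3CR1 and SPI1 among them. The defining markers of the labelled cell type were thus largely undetected. Fibroblast and pericyte markers were present in part (COL1A1 at 721 CPM, THY1 at 209.6 CPM and PDGFRB at 36.4 CPM), while COL3A1 and LUM had 0 counts. No endothelial marker was tested, and 6 of 7 had at most 3 counts in every library. In bulk RNA, a change in the share of cells that express a gene and a change in RNA per cell cannot be told apart.

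The order of levels was ZEB2, TWIST1, ZEB1, TCF4, SNAI2, TWIST2, SNAI1 and PRRX1. Tag counts of this kind do not grow with transcript length, so CPM was compared between genes directly, although the share of a gene's tags that falls on its annotated 3' end can differ. TWIST1 lay above ZEB1, TCF4 above SNAI2 and SNAI1 above PRRX1 in 6 of 6 libraries. ZEB2 exceeded TWIST1 in 5 of 6 libraries, ZEB1 exceeded TCF4 in 5, SNAI2 exceeded TWIST2 in 4 and TWIST2 exceeded SNAI1 in 4, so these neighbours were not separated beyond their spread. Among the 17264 genes with a count, ZEB2 lay above 75.1%, TWIST1 above 71.6%, ZEB1 above 59.6%, TCF4 above 50.8% and SNAI1 above 31.2%.

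**Figure D1:**
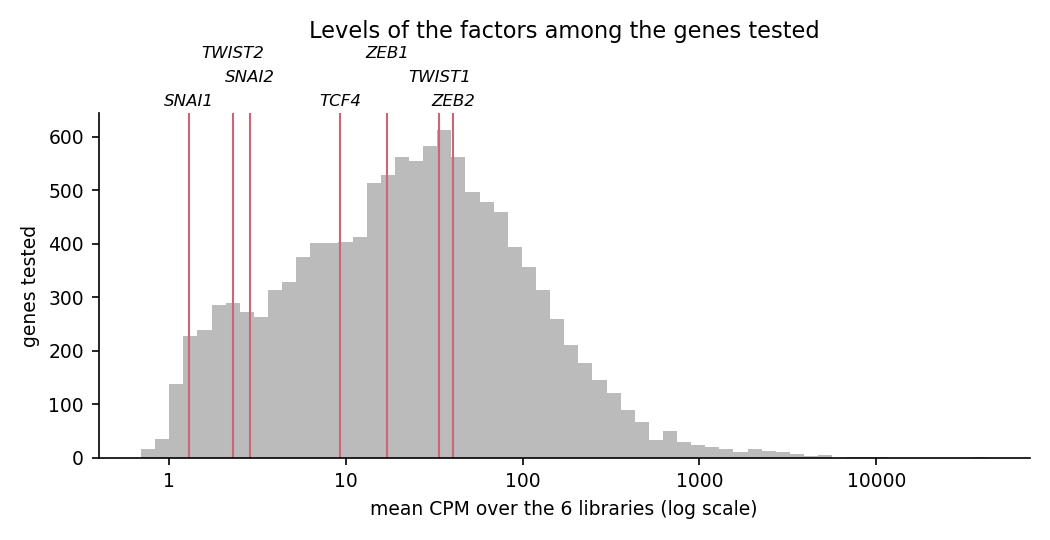
Histogram of mean CPM over the 6 libraries (log scale, horizontal) for the 12125 genes tested (number of genes, vertical), with a line for each of the 7 tested members. ZEB2 at 40.3 and TWIST1 at 33.8 CPM stand near the peak of the distribution, and SNAI1 at 1.29 CPM near its lower end.

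ZEB2 and ZEB1 are the members that the microRNAs of the miR-200 family are best known to restrain, through sites in the 3' UTR, the stretch in which 3' tags also fall. The mature sequences of the family are shown from RefSeq (GRCh38.p14) because their seeds, bases 2 to 8 in capitals, fall into a pair of groups that differ at a single base. The microRNAs themselves were not measured here.
hsa-miR-200b-3p: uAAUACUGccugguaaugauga
hsa-miR-200c-3p: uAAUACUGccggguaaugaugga
hsa-miR-429: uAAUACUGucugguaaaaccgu
hsa-miR-200a-3p: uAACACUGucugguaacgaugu
hsa-miR-141-3p: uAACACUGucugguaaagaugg

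The perfect seed matches, CAGTATT for the group of miR-200b and CAGTGTT for that of miR-200a, were counted on the sense strand of the longest annotated 3' UTR of each gene (GENCODE 29). ZEB1 held 6 and 3 matches in 2549 bases and ZEB2 held 5 and 4 in 5370 bases, 9 in all for each. Of 19115 genes with a 3' UTR, 0.031% held 9 or more. TCF4 held 3 matches in 5704 bases, where 3.70% of genes held 3 or more. These percentages are over 3' UTRs of any length, with a median of 1083 bases. Among the 3270 genes with a 3' UTR length from that of ZEB1 to that of ZEB2, the median was 1 match. SNAI2 held 1, and SNAI1, TWIST1, TWIST2 and PRRX1 held 0. The match nearest the stop codon for each seed is shown with the match in capitals, 23 bases each, on GRCh38.
ZEB1, miR-200b seed match, chr10:31527618-31527640, plus strand: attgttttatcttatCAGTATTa
ZEB1, miR-200a seed match, chr10:31528031-31528053, plus strand: caaaatcatcagaatCAGTGTTt
ZEB2, miR-200b seed match, chr2:144389052-144389074, minus strand: cgcactaccatacatCAGTATTt
ZEB2, miR-200a seed match, chr2:144389236-144389258, minus strand: tgcaaaaattttgtaCAGTGTTa

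A match is a description of the letters and not a measured site. MIR200CHG, the host transcript of miR-200c and miR-141, had 5 counts in IL-33 3 and 0 elsewhere, and MIR205HG had 3 counts in IL-33 2 and 0 in the others. Both were chosen after their values were seen, and both lay near the detection limit.

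ZEB2, on chromosome 2 from 144364364 to 144524583 on the minus strand (GRCh38), was the most abundant member. It measured 32.2, 38.5 and 40.5 CPM in Control 1 to 3 and 50.5, 41.9 and 38.2 CPM in IL-33 1 to 3. IL-33 1 was the highest library and Control 1 the lowest, and the groups overlapped through IL-33 3, which lay below 2 of the Control libraries. The means were 37.1 ± 4.36 and 43.5 ± 6.32 CPM (SD, n = 3 each), a log2 fold change of 0.24 ± 0.17 (SE) with a 95% interval from -0.11 to 0.58 and, in edgeR's quasi-likelihood fit, an adjusted p of 0.999. With libraries scaled by total counts alone, the groups did not overlap, as in 8.20% of all genes tested under that scaling.

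ZEB1, on chromosome 10 from 31318495 to 31529814 on the plus strand, had the smallest unadjusted p among the members. It measured 14.7, 24.6 and 21.7 CPM in Control against 9.38, 16.9 and 15.7 CPM with IL-33. IL-33 1 was the lowest library and Controls 2 and 3 were the highest, while Control 1 lay below IL-33 2 and IL-33 3, so the groups overlapped. The means were 20.4 ± 5.11 and 14.0 ± 4.03 CPM (SD, n = 3 each), with a log2 fold change of -0.54 ± 0.26 (SE), a 95% interval from -1.08 to 0.01, and from edgeR's quasi-likelihood fit an unadjusted p of 0.0544 and an adjusted p of 0.999. By unadjusted p it ranked 318 among the 12125 genes tested. Without IL-33 1 the log2 fold change was -0.32 and without Control 1 -0.73. ZEB1-AS1, transcribed on the opposite strand beside ZEB1, had 58 counts in all against 867 for ZEB1. ZEB1 and ZEB1-AS1 were counted as separate genes. The kit keeps the strand but the strand setting of the counting is not given. How reads were assigned where ZEB1 and ZEB1-AS1 overlap is therefore not known.

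The share of ZEB counts that were ZEB1 is free of library scaling. The Control libraries gave 31.4%, 39.0% and 34.9% and the IL-33 libraries 15.7%, 28.7% and 29.1%, so each IL-33 value was lower than each Control value. The group means were 35.1 ± 3.85% and 24.5 ± 7.66% (SD, n = 3 each). The exact binomial (Clopper-Pearson) 95% interval of IL-33 1, 12.8% to 18.9%, lay apart from those of the other 5 libraries, while that of Control 1, 27.2% to 35.8%, overlapped those of IL-33 2 (25.2% to 32.5%) and IL-33 3, whose upper bound was 33.5%. The difference of -10.6 percentage points came to -6.18 without IL-33 1. No test was made on the share, and 3 libraries against 3 allow no two-sided exact permutation p below 0.1. The shares of TWIST1 and SNAI1 within their pairs overlapped between groups, as did the CPM of ZEB1 and that of ZEB2. How often other gene pairs separate in this way was not computed, so the separation has no background beside it.

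**Figure D2:**
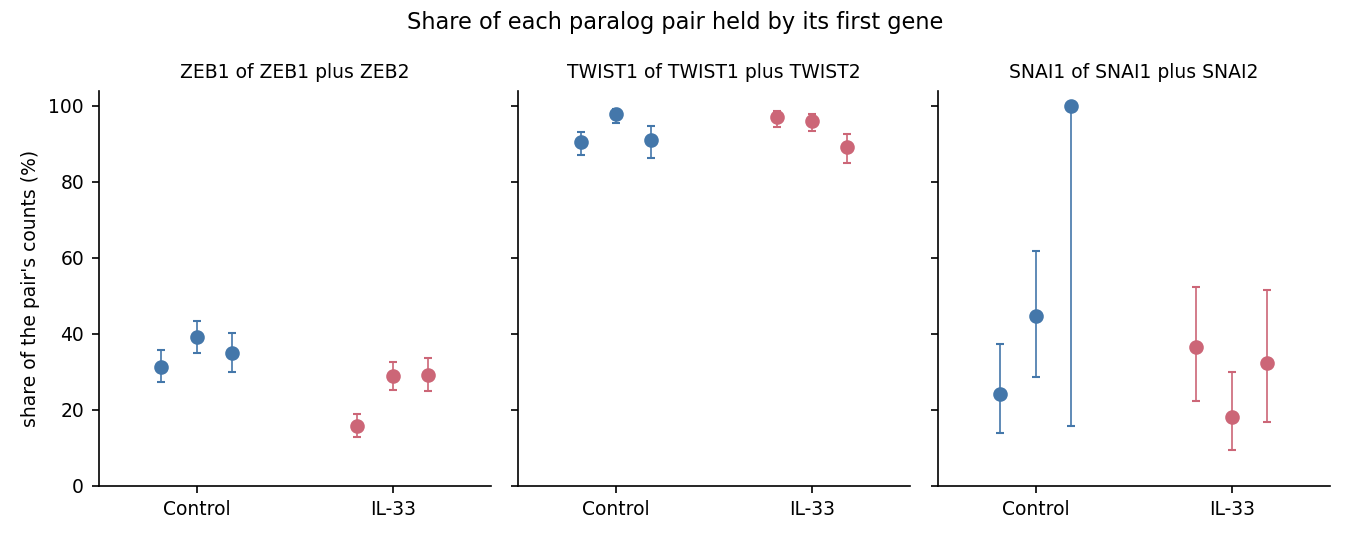
Share of the counts of each paralog pair (percent, vertical) held by ZEB1, TWIST1 and SNAI1, for each Control and IL-33 library, with exact binomial 95% intervals as bars. The ZEB1 share runs from 31.4% to 39.0% in Control and from 15.7% to 29.1% with IL-33, the TWIST1 share is 89.2% or more in each library, and the SNAI1 share has wide intervals.

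TWIST1, on chromosome 7 from 19020991 to 19117672 on the minus strand, had the lowest relative spread of the 7 tested members. It measured 34.4, 37.3 and 32.9 CPM in Control against 34.1, 35.1 and 29.4 CPM with IL-33, and the groups overlapped. Its coefficient of variation over the 6 libraries was 7.76%, against a median of 17.0% over all genes tested. The means were 34.9 ± 2.21 and 32.8 ± 3.06 CPM (SD, n = 3 each), and the log2 fold change was -0.09 ± 0.16 (SE) with a 95% interval from -0.43 to 0.26. Its paralog TWIST2 (chromosome 2, 238848032 to 238910543, plus strand) measured 3.67, 0.842 and 3.26 CPM in Control against 1.07, 1.46 and 3.54 CPM with IL-33. High and low libraries occurred in both groups. The log2 fold change of TWIST2 was -0.36 ± 0.67 (SE), with an interval from -1.77 to 1.04, and it came to 0.02 without Control 1. TWIST1 held between 89.2% and 97.8% of the TWIST counts, with group means of 93.0 ± 4.13% in Control and 94.1 ± 4.20% with IL-33 (SD, n = 3 each).

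The SNAIL genes were low. SNAI2 (chromosome 8, 48917604 to 48921740, minus strand) had 44, 21 and 0 counts in Control against 28, 50 and 21 with IL-33, or 4.37, 2.52 and 0 CPM against 2.98, 4.88 and 2.48 CPM. The 0 in Control 3 allows up to 0.543 CPM at 3 counts, or 0.668 CPM by the exact Poisson 95% interval, and lay below the other 5 libraries. The log2 fold change of 0.52 ± 0.75 (SE) had an interval from -1.08 to 2.12, and without Control 3 it was -0.0018. SNAI1 (chromosome 20, 49982999 to 49988886, plus strand) had 14, 17 and 2 counts in Control against 16, 11 and 10 with IL-33, or 1.39, 2.04 and 0.362 CPM against 1.71, 1.07 and 1.18 CPM. Control 3 was again the lowest library. The log2 fold change of SNAI1 was 0.01 ± 0.77 (SE), with an interval from -1.61 to 1.63. It was -0.37 without Control 3 and -0.21 without IL-33 1. The intervals of both SNAIL genes reached past a 2-fold change in either direction. Of 2 SNAIL counts in Control 3, 2 were SNAI1, with an interval from 15.8% to 100% for the share. Elsewhere the share of SNAI1 was at most 44.7%.

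TCF4, on chromosome 18 from 55222331 to 55664787 on the minus strand, was the member whose spread within groups most exceeded counting error. It measured 15.7, 6.01 and 6.33 CPM in Control against 7.14, 11.0 and 9.67 CPM with IL-33. Control 1 was the highest library and the other Controls were the lowest, with the IL-33 libraries between them. The means were 9.34 ± 5.50 and 9.28 ± 1.98 CPM (SD, n = 3 each), and the log2 fold change was -0.03 ± 0.36 (SE) with an interval from -0.78 to 0.71. The direction rested on single libraries: the log2 fold change was 0.59 without Control 1, 0.13 without IL-33 1 and -0.27 without Control 2. TCF4-AS1, antisense to TCF4, had 0 counts.

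PRRX1, on chromosome 1 from 170662728 to 170739419 on the plus strand, had 0 counts in 6 of 6 libraries. At 3 counts this allows 0.293 CPM in the deepest library and 0.543 CPM in the shallowest. The exact Poisson 95% intervals reach 0.360 and 0.668 CPM in those libraries. PRRX1 was not tested and no fold was computed. A tag beyond the annotated 3' end would not be counted, and the annotation used by the authors is not given in the sources used here. Its relative PRRX2 was measured at 1.55 CPM, with a log2 fold change of 0.16 ± 0.69 (SE).

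**Figure D3:**
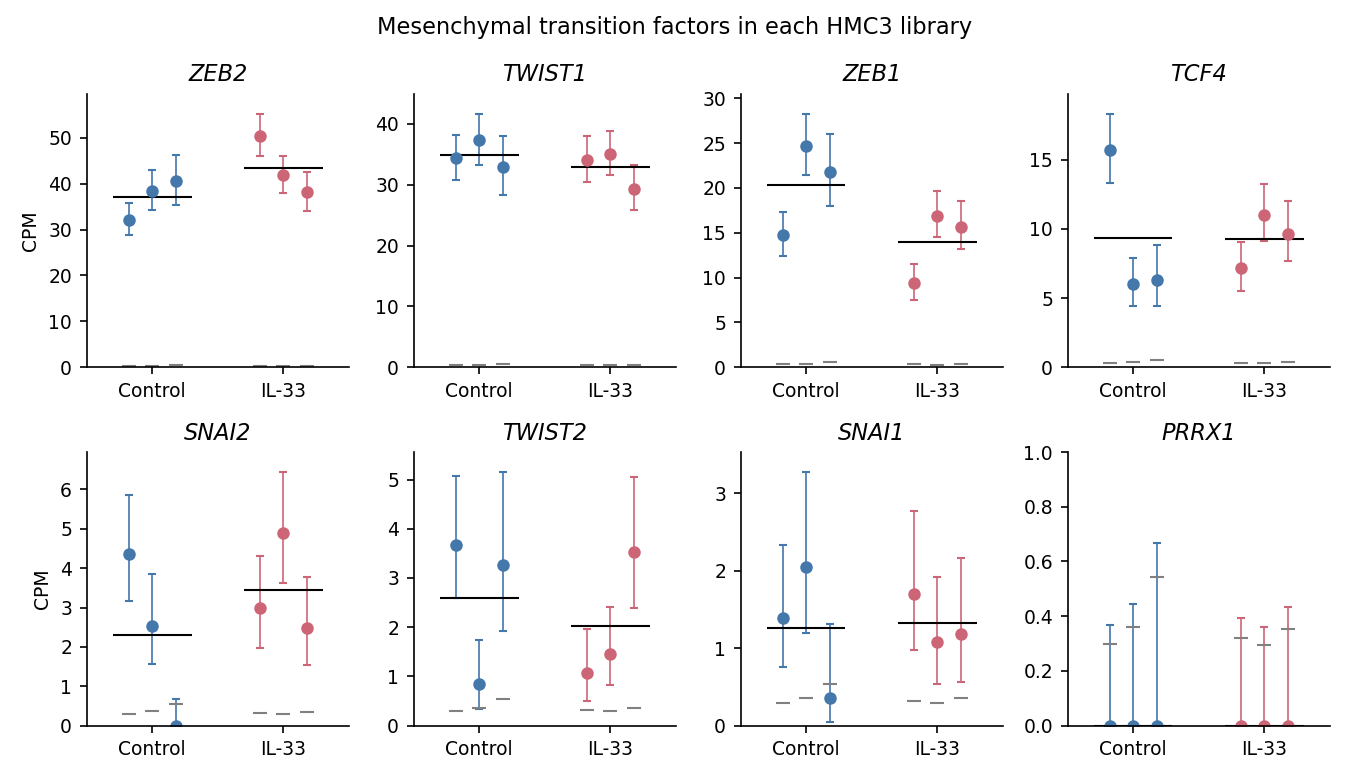
CPM (vertical, linear, each panel with its own scale) of the 8 members in the 3 Control and 3 IL-33 libraries, in replicate order, with exact Poisson 95% intervals as bars. Black lines are group means, and short grey marks are the level of 3 counts in each library. The groups overlap in all 7 members with counts, and PRRX1 is at 0 throughout.

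The spread between libraries of a group exceeded counting error in most members. The within-group chi-square per degree of freedom, which is near 1 when counting error alone acts, was 15.1 for TCF4, 11.6 for ZEB1, 8.51 for SNAI2, 7.80 for TWIST2, 6.29 for ZEB2, 2.12 for SNAI1 and 1.77 for TWIST1. The median over all genes tested was 5.49. TCF4 stood above 88.3% and ZEB1 above 82.1% of genes tested in this measure, and TWIST1 above 10.8%. At a given relative spread the measure rises with the counts of a gene, so these percentages mix depth and spread. Over the 6 libraries, the coefficient of variation was 59.9% for SNAI2, 57.1% for TWIST2 and 39.7% for TCF4.

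**Figure D4:**
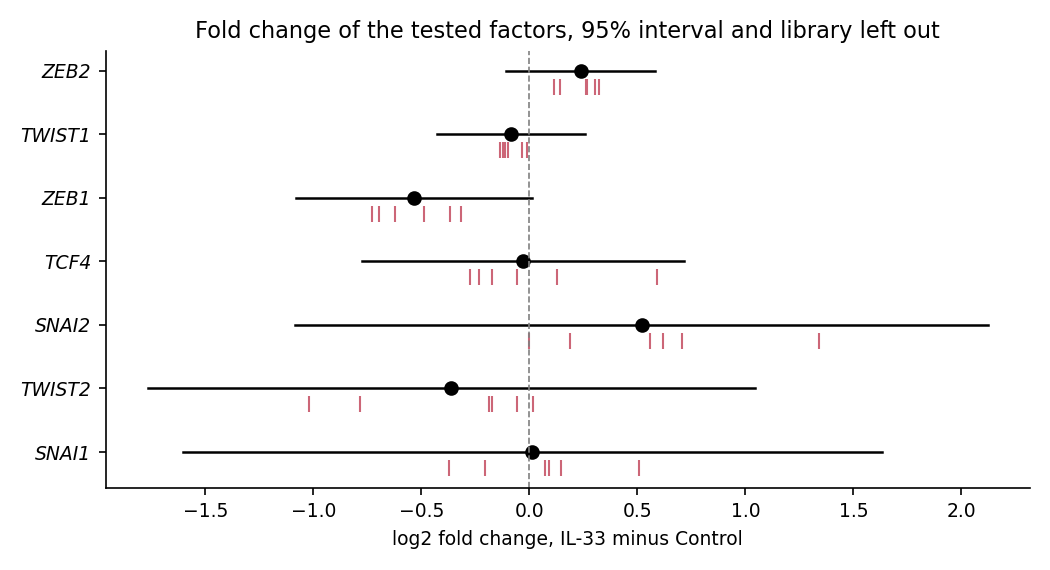
Log2 fold change of IL-33 against Control (horizontal) for the 7 tested members, with edgeR's estimate as a point, its 95% interval as a line and the 6 estimates with a library left out as red marks. All 7 intervals hold 0, and those of ZEB2, TWIST1 and TCF4 lie within -1 to 1.

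The 95% intervals of 3 of 7 members, ZEB2, TWIST1 and TCF4, lay within -1 to 1 on the log2 scale, as did 73.4% of all genes tested. Over the 6 libraries, the gene at 10 CPM or more whose log2 CPM was most like ZEB2 was NDRG2 (Pearson's r = 0.991), that most like TWIST1 was USP1 (r = 0.982) and that most like ZEB1 was HNRNPM (r = 0.973). These are the highest of 8330 genes compared over 6 libraries that share depth and Control 3, and 45, 42 and 40 genes exceeded 0.9 for the 3 members. They are given as a description.

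E-boxes, the sequences that the SNAIL, ZEB and basic helix-loop-helix members bind, were counted in RefSeq promoter windows (GRCh38.p14), of 300 bases around each start. Windows were matched for PRRX1, TWIST2, ZEB1, ZEB2 and TCF4, 20 in all. Most of the 20 were of TCF4 and ZEB1, so the counts describe mainly these genes. SNAI1, SNAI2 and TWIST1 were not matched. The general motif CANNTG, which reads alike on both strands, occurred in 12 of the 20 windows and in 68.7% of all 35116 windows. Its form CACCTG, on either strand and counted within CANNTG too, occurred in 2 windows, both of ZEB1, against 20.6% of all windows. A match shows letters and not binding.

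The other genes of the pathway were described from lists chosen with earlier results of these data known, beside the median log2 fold change of -0.01 over all genes tested. In none of these lists did a gene pass the same threshold in the edgeR fit, where 0% of the 12125 genes tested were called. E proteins pair with TWIST proteins, and ID proteins hold E proteins back. Of 6 such genes 5 were tested, 2 above 0 and 3 below, with a median of -0.05. TCF3, the most abundant, measured 122 ± 1.63 CPM in Control against 122 ± 2.24 CPM after IL-33 (SD, n = 3 each), a log2 fold change of 0.00 ± 0.10 (SE), while ID2 had -0.05 ± 0.15 and TCF12 -0.07 ± 0.14. The E protein genes TCF3 and TCF12 (50.9 CPM over the 6 libraries) thus stood above TCF4 at 9.31 CPM.

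Other transcription factors of mesenchyme were present beside the members. Of 20 listed, 19 were matched in the table (TBXT was not) and 14 were tested, 8 above 0 and 6 below, with a median of 0.02. The 3 most abundant were ETS1 at 111 CPM (log2 fold change -0.23 ± 0.13, SE), SOX4 at 98.3 CPM (0.15 ± 0.11) and the forkhead factor FOXC1 at 54.3 CPM (0.07 ± 0.14). SOX4, whose Control mean was 93.1 CPM and IL-33 mean 103 CPM, did not overlap between groups, as in 8.06% of all genes tested, and did not pass the test. It was the single tested gene of the 14 without overlap. KLF8 and FOXF2 had 0 counts, as PRRX1 did.

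Partner enzymes through which SNAIL and ZEB proteins silence genes were mostly well measured. Of 14 corepressors and chromatin enzymes 13 were tested, 8 above 0 and 5 below, with a median of 0.01. Each of the 13 was at 10 CPM or more. Each of their intervals lay within -1 to 1, as did 73.4% of those of all genes tested, whatever their level. PRMT5, which was not tested, had 7 counts in all. SUZ12, a subunit of the Polycomb repressive complex PRC2, had a log2 fold change of -0.16 ± 0.09 (SE) at 263 CPM, SMARCA4, a chromatin remodelling ATPase, 0.00 ± 0.13 at 189 CPM, and CTBP2, a corepressor that ZEB proteins bind, 0.11 ± 0.10 at 167 CPM. In 3 of the 13 the groups did not overlap, with CTBP2 and EZH2 higher after IL-33 and SUZ12 lower, beside the 8.06% of all genes tested. Among kinases, ubiquitin ligases and related enzymes that set the stability of these short-lived proteins, 16 of 18 were tested, 7 above 0 and 9 below, with a median of -0.04. CSNK1A1, a casein kinase, had -0.05 ± 0.11 at 313 CPM, the ligase gene MDM2 0.09 ± 0.12 at 171 CPM, and COPS2, a subunit of the COP9 signalosome, -0.11 ± 0.12 at 92.6 CPM. Of the 16, BTRC, USP27X and SIAH1 did not overlap between groups, beside the 8.06% of all genes tested in either direction. All 3 were higher after IL-33, and none of them passed the test. RNA counts do not show the protein levels on which these enzymes act.

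TGF-beta is a textbook inducer of SNAI and ZEB genes. All 13 listed ligands, receptors, SMADs and SMAD regulators were tested, 4 above 0 and 9 below, with a median of -0.07. TGFB2 measured 91.6 ± 11.6 CPM in Control against 92.8 ± 1.37 CPM after IL-33 (SD, n = 3 each), and SMAD3 had a log2 fold change of 0.03 ± 0.14 (SE). SKI, a repressor of SMAD signalling, was the single listed gene at an unadjusted p under 0.05, against 2.43% of all genes tested. It measured 83.5, 84.0 and 91.0 CPM in Control against 71.1, 73.1 and 69.9 CPM with IL-33, so the groups did not overlap, as in 8.06% of all genes tested. Its log2 fold change was -0.27 ± 0.12 (SE), and its adjusted p in the edgeR fit was 0.999.

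Mesenchymal genes that rise in the transition included some of the most abundant transcripts of these cells. FN1, the gene of fibronectin, measured 3708 ± 200.5 CPM in Control against 3636 ± 188 CPM after IL-33 (SD, n = 3 each), the intermediate filament gene VIM 1572 ± 293 and 1534 ± 135 CPM, and the actin-binding TAGLN 1469 ± 45.0 and 1500.3 ± 109 CPM. Their log2 fold changes were -0.03 ± 0.09, -0.03 ± 0.12 and 0.03 ± 0.09 (SE). Of 22 listed genes 16 were tested, 8 above 0 and 8 below, with a median of 0.01, and 14 had intervals within -1 to 1. COL3A1, ACTA2 and POSTN had 0 counts, so the mesenchymal list was not detected as a whole. As for PRRX1, tags beyond an annotated 3' end would not be counted.

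Epithelial genes that these factors repress were mostly low, with exceptions. CDH1 had 4, 9 and 2 counts in Control against 19, 8 and 10 with IL-33, a mean of 0.971 CPM over the 6 libraries, and did not pass the low-count filter. EPCAM measured 0.363 CPM, and KRT19, RAB25 and MARVELD3 had 0 counts. KRT18, a keratin of simple epithelia, was abundant at 628 CPM (log2 fold change -0.08 ± 0.10, SE), followed by the desmosomal gene DSP at 78.1 CPM (-0.15 ± 0.15) and the tight junction gene CLDN1 at 64.9 CPM (-0.21 ± 0.13). Of 22 listed genes 12 were tested, 5 above 0 and 7 below, with a median of -0.09. Epithelial factors that oppose the members were also mostly low: of 14 listed, 4 had 0 counts, GRHL2, OVOL2, ESRP2 and CDX2, and 6 were tested, 1 above 0 and 5 below, with a median of -0.23. The zinc finger factor KLF5 measured 54.6 ± 12.3 CPM in Control against 44.4 ± 2.03 CPM after IL-33 (SD, n = 3 each), with a log2 fold change of -0.29 ± 0.16 (SE). FOXA1 had -0.51 ± 0.33 and the splicing regulator ESRP1 -0.18 ± 0.47.

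**Figure D5:**
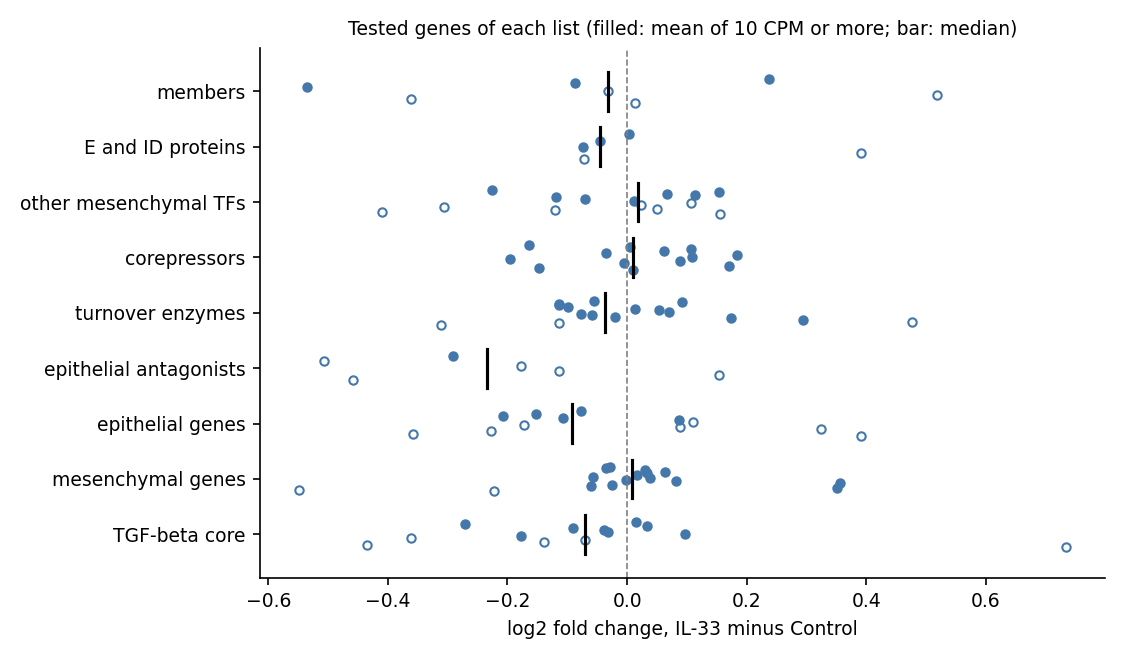
Log2 fold change of IL-33 against Control (horizontal) for the tested genes of the members and of 8 lists (vertical), filled where the mean was at least 10 CPM, with a bar for the list's median. The medians run from -0.23 for the epithelial antagonists, 1 of whose 6 tested genes reached 10 CPM, to 0.02 for other mesenchymal factors. Antisense RNAs, of which 2 were tested, are not drawn.

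Antisense and divergent RNAs beside SNAIL, ZEB and TCF4 genes were mostly sparse, with SNAI3-AS1, beside the non-member SNAI3, above the others. ZEB1-AS1 had a log2 fold change of -0.53 ± 0.88 (SE) at 1.16 CPM, and SNAI3-AS1, at 8.26 CPM, had -0.24 ± 0.32. ZEB2-AS1 had 1 count in all, and TCF4-AS1 and LINC01412 had 0.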

How the data were processed

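Libraries were made from HMC3 RNA extracted with TRIZOL, per the labels' protocols, with 3 Control and 3 IL-33 libraries. The authors deposited whole-number read counts per gene symbol. Per the submitters' processing notes, the tools and build were STAR 2.7.5a, HTSeq 0.6.1, edgeR and hg38, with no role given. For annotation, strand setting and filters the sources used here give nothing. A row without values was left out.

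On the deposited counts, edgeR 4.0.16 (R 4.3.3) was run after filterByExpr (count minimum 10, total minimum 15) and TMM scaling, as a robust quasi-likelihood fit on group alone, and Benjamini-Hochberg adjustment over 12125 genes. SE came from the fold change and its F statistic. Alternatives were other scalings, filters, thresholds, DESeq2 1.42.0, limma-voom (limma 3.58.1), a replicate block and each library left out. The alternatives for shares and for list genes were chosen after seeing the data. Members and lists were chosen with earlier results of these data known. Named list genes are the 3 most abundant tested genes of each list and any past the threshold, and further named genes were picked with their values in view. Libraries within a group differed beyond sampling noise (chi-square per degree of freedom at least 5.56), and none were merged. Positions came from GENCODE 29 (GRCh38).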

Additional observations from a re-analysis of the deposited data

How the results depend on the processing

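In the alternatives run, 0 members and 0 genes of the pathway lists were called in any setting, and 79 of the 87 refitted log2 fold changes of members kept their direction. Over all genes the count of 0 called came to 3 without the low-count filter (KIRREL3-AS2, MALAT1 and NEAT1), to 1 with DESeq2 (KIRREL3-AS2), and to between 0 and 6 with a library left out. The 6, without Control 3, were ADAMTSL1, ARCN1, KIRREL3-AS2, LTB4R, MALAT1 and PAIP2. At an unadjusted p under 0.05, edgeR had 295 genes, DESeq2 290 and limma-voom 329. The direction of TCF4 turned with limma-voom (0.0094) and with the replicate block (0.099), and with a library left out ran from -0.27 to 0.59. SNAI1 ran from -0.37 to 0.51, SNAI2 from -0.0018 to 1.34 and TWIST2 from -1.02 to 0.015. The cause was not tested. Members without overlap between groups were 1 with library size alone (ZEB2, where 8.20% of tested genes did not overlap) and 0 to 2 with a library left out: ZEB1 and TCF4 without Control 1, and ZEB2 without IL-33 3, where 17.2% and 16.5% of tested genes did not overlap. The unadjusted p of ZEB1 was under 0.05 without the filter (0.0287), with the replicate block (0.0291), without Control 1 (0.0144) and without IL-33 2 (0.0367), with adjusted p of 0.995 or more. The labels do not say that replicate numbers pair libraries, and deviations of same-numbered libraries correlated at -0.086, 0.027 and -0.136. The members with the fewest counts, SNAI1 (70), TWIST2 (117) and SNAI2 (164), had the widest intervals of the 7 tested. The spread of SNAI2 and TWIST2 within groups also exceeded counting error (chi-square per degree of freedom 8.51 and 7.80), and the parts of depth and spread were not tested.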
